A study of Mus musculus with 12 samples.

Results

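The 39 Hox genes of the mouse were followed in fibroblasts at an early step of reprogramming, to see whether transcripts that record the body position of a cell moved with the reprogramming factors, with vitamin B12, or with the embryo that gave the cells. Members were all protein-coding genes of the count table whose symbol is Hoxa, Hoxb, Hoxc or Hoxd followed only by a number, which gave 39 of 55573 genes. The samples were mouse embryonic fibroblasts (MEFs) of strain C57BL/6 from 3 embryos of stage E13.5, called clones 1, 2 and 3. Per the study's methods all of these cells, controls included, carry the i4F cassette, which expresses Oct4, Sox2, Klf4 and c-Myc (OSKM) when doxycycline is given. From each clone 1 library was made per group, which gave 4 groups of 3 libraries: MEF had neither agent, MEF+B12 had 2 µM vitamin B12, OSKM had doxycycline, and OSKM+B12 had both, each for 72 h in medium for pluripotent stem cells. The labels give the doxycycline at 1 µg/ml and the study's methods give the same figure in mg, so the dose is uncertain. No group had doxycycline without the factors, so effects of the drug and of OSKM cannot be told apart, and a clone is 1 embryo whose 4 libraries are parallel cultures.

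Hox genes encode homeodomain transcription factors that lie in 4 clusters and give a cell its address along the body axis and the limb. Their order within a cluster follows the order in which they are switched on, from paralogue group 1 at the head end to group 13 at the tail end and the limb tips. Fibroblasts keep such a pattern in culture, and their Hox genes have long served as a record of the site of origin, which Polycomb proteins help to hold. The clusters lay on chromosome 6 from 52155590 to 52260880 (cluster A, 11 members), on chromosome 11 (cluster B, 10 members), on chromosome 15 (cluster C, 9 members) and on chromosome 2 (cluster D, 9 members) of GRCm38.

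The library totals ranged from 56971244 to 79236795 counts, of which 15191 to 21414 fell in Hox genes. Oct4 (Pou5f1) checked the labels: it ranged from 0 to 0.468 CPM (a gene's count relative to the scaled total count of its library) in the 6 uninduced libraries and from 2.34 to 20.7 CPM in the 6 induced ones. It reached 19.3 to 20.7 CPM in clone 1 and 18.5 to 19.0 CPM in clone 2, against 2.34 to 2.86 CPM in clone 3. The titles of clone 1 carry another number suffix than those of clones 2 and 3, and the labels do not say what it stands for. The clones also differed in sex-linked transcripts. The Y-linked Ddx3y ranged from 80.2 to 97.05 CPM in clone 1 and had 0 counts in clones 2 and 3, while Xist, the RNA of the inactive X chromosome, ranged from 218.6 to 350.3 CPM in clones 2 and 3 and was at most 0.0289 CPM in clone 1. Embryo, sex and whatever the title suffix stands for therefore cannot be told apart in any comparison of clone 1 with the others.

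These fibroblasts expressed nearly the whole Hox repertoire. Of the 39 members, 38 had at least 1 count in every library, 32 averaged over 1 CPM and 9 averaged over 10 CPM. Per kilobase of exon, Hoxd8 was highest, with 10.1 ± 0.948 CPM per kb (SD, n = 12 libraries), followed by Hoxb9 with 8.48 ± 1.20, Hoxc8 with 7.81 ± 0.687, Hoxa10 with 7.60 ± 1.74 and Hoxc10 with 7.49 ± 0.510. The ranges of these neighbours overlapped, so their order is a description. The top 5 members held 39.7% of the summed level per kilobase. At the other end, Hoxb13, a tail-bud gene of the last paralogue group, had 0.108 ± 0.0577 CPM per kb from 4 to 29 counts a library, and Hoxd1 had 0.169 ± 0.0589 from 8 to 28 counts. Hoxb1, a gene of the hindbrain, had 0 counts in all 12 libraries, which allows up to 3 counts or 0.0385 to 0.0520 CPM a library. It was the only member that did not pass the filter on low counts.

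Anterior, middle and posterior paralogue groups all contributed. Averaged within clones, groups 9 to 13 held 45.2% to 47.8% of the summed level per kilobase, groups 5 to 8 held 37.7% to 41.6%, and groups 1 to 4 held 13.2% to 14.5%. Fibroblast markers were abundant, with a summed level of 88780 to 142397 CPM over 14 genes. Markers of other cells were also counted, and the 11 macrophage markers summed to 540.2 to 1514 CPM and moved with B12 as given below. In bulk RNA, fewer cells of a kind and less RNA per cell cannot be told apart.

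Hoxc6, a thoracic gene, was the steadiest member, at 15.9 to 17.2 CPM over the 12 libraries, and its highest library was 1.08 times its lowest. At this ratio, 10 of the 38 tested members stayed under 1.5, and 14 exceeded 2. Hoxd3 and Hoxd4 have only 37.7% and 47.7% of their exon bases free of another gene on the same strand, since they overlap each other and Gm28230. Reads in the shared bases cannot be assigned to 1 gene, so the values of Hoxd3 and Hoxd4 are uncertain. Among all members, at most 2.73% of 31-base words recurred in genes of another chromosome, and 5 members had more than 1% of such words.

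**Figure D1:**
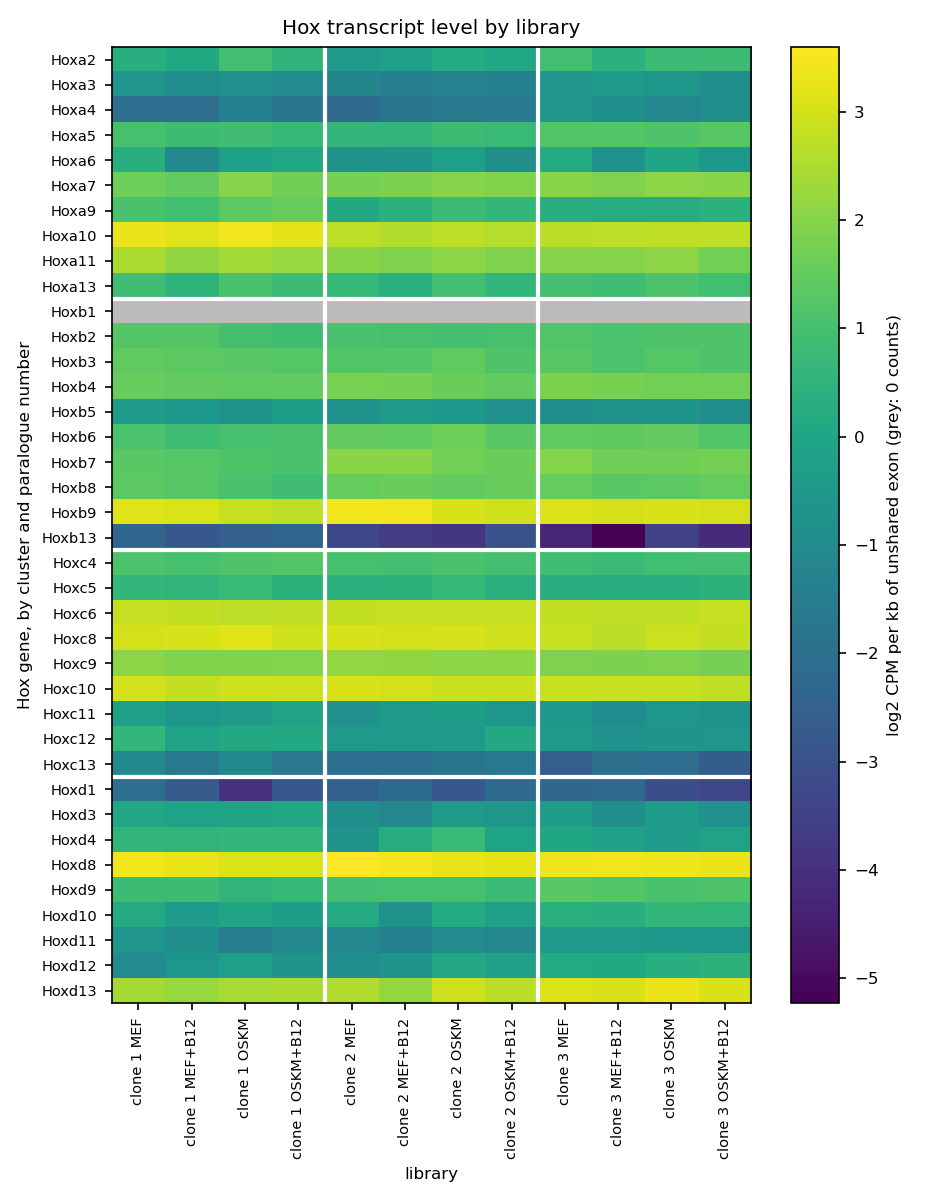
Level of Hox genes (rows, by cluster and paralogue number, with 1 member not shown) in the 12 libraries (columns, by clone), as log2 CPM per kilobase of unshared exon. The rows of Hoxd8, Hoxb9, Hoxc8, Hoxc10 and Hoxc6 are bright in all 12 libraries, Hoxa10 is brightest in clone 1, and the grey row is Hoxb1 with 0 counts.

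Most Hox transcripts differed between the embryos of origin. In 1 fit over all libraries, 27 of 38 members differed between clones at an adjusted p under 0.05, or 71.1%, where 37.8% of all 19174 genes tested did so (edgeR quasi-likelihood F test, Benjamini-Hochberg adjustment). The called members came from all clusters, with 9 of 11 in A, 6 of 9 in B, 5 of 9 in C and 7 of 9 in D. By position they were 7 of 11 in groups 1 to 4, 6 of 11 in groups 5 to 8 and 14 of 16 in groups 9 to 13. The sizes were modest: the ratio of the highest to the lowest clone mean ran from 1.18 to 3.23 over the called members, with a median of 1.53. Since the 4 libraries of a clone come from 1 embryo, the test compares these cultures and not a condition.

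The 3 members of smallest p were Hoxa10, Hoxd13 and Hoxa9, genes of the lower trunk and limb. Their promoter windows from RefSeq are printed to show the sequence around annotated starts. Which starts these cells used was not measured. Each window runs from 250 bases before to 50 after an annotated start on GRCm38.p6, is written 5′ to 3′ on the strand of the gene, and has its CG dinucleotides, the positions open to DNA methylation, in capitals. Hoxa10 has a window for each of 2 starts.
Hoxa10, upstream start (chr6:52240805-52241104, minus strand): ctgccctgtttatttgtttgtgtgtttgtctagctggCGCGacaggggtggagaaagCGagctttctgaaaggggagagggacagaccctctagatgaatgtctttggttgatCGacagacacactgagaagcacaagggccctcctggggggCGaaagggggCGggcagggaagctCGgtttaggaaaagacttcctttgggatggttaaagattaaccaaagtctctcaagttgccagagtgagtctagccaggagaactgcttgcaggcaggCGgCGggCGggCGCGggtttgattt
Hoxa10, downstream start (chr6:52234890-52235189, minus strand): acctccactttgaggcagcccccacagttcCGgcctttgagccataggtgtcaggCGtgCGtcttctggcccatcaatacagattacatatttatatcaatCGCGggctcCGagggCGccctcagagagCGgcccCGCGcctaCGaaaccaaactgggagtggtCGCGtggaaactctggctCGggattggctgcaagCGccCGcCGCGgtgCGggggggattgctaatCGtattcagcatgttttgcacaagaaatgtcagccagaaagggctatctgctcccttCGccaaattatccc
Hoxd13 (chr2:74667975-74668274, plus strand): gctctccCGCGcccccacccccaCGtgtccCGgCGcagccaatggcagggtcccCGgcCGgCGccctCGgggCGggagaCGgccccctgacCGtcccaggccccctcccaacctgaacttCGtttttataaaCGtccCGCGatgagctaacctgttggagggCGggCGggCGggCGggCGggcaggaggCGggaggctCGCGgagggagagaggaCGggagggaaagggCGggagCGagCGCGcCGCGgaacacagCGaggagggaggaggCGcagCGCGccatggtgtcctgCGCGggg
Hoxa9 (chr6:52227321-52227620, minus strand): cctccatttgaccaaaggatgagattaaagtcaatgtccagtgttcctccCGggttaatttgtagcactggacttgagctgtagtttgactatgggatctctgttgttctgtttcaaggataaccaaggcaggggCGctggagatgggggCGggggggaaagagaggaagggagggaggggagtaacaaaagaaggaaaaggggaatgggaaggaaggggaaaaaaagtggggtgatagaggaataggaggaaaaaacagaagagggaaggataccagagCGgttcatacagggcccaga
The Hoxd13 window held 37 CG dinucleotides, a number that 5.58% of 32851 windows of all genes reached, and the windows of Hoxa10 held 12 and 21. The Hoxa9 window held 4, against a median of 7 over all windows and of 14.5 over the 24 windows of 22 Hox genes. These windows describe sequence only, since methylation was not measured here and 17 members had no window in the table.

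Hoxa10 (ENSMUSG00000000938, chromosome 6, 52231197 to 52240854, minus strand), which patterns the upper hind limb and the uterus, was highest in clone 1. Its levels in the order MEF, MEF+B12, OSKM and OSKM+B12 were 32.9, 30.1, 35.3 and 30.98 CPM in clone 1, 21.5, 19.6, 21.3 and 19.9 in clone 2 and 20.8, 21.7, 21.9 and 22.2 in clone 3. All 4 libraries of clone 1 lay above the 8 others. The log2 fold change was -0.65 ± 0.05 (± standard error) in clone 2 against clone 1 (adjusted p = 1.03e-05) and -0.57 ± 0.05 in clone 3 against clone 1 (adjusted p = 1.78e-05), while clones 3 and 2 gave 0.07 ± 0.05 (adjusted p = 0.461).

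Its neighbours Hoxa9 and Hoxa11 were also highest in clone 1. Hoxa9 (ENSMUSG00000038227, chromosome 6, 52223100 to 52231089, minus strand), a gene of the lumbar region known also from blood stem cells, had 11.6, 10.6, 14.4 and 16.2 CPM in clone 1, 6.02, 7.34, 9.65 and 8.31 in clone 2 and 6.88, 6.41, 6.49 and 7.28 in clone 3, in the same order of groups. It was lower by a log2 fold change of -0.75 ± 0.11 in clone 2 (adjusted p = 0.000556) and -0.94 ± 0.11 in clone 3 (adjusted p = 0.000118). Hoxa11, which patterns the forearm and shank, had 13.1, 10.1, 11.8 and 10.7 CPM in clone 1, 9.23, 8.47, 9.53 and 8.49 in clone 2 and 9.02, 9.15, 9.66 and 7.47 in clone 3. For both genes the libraries of clone 1 lay above all others, and Hoxa11 had a log2 fold change of -0.35 ± 0.07 in clone 2 (adjusted p = 0.00467) and -0.37 ± 0.07 in clone 3 (adjusted p = 0.00294).

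The anterior end of the same cluster followed another order of clones. Hoxa2, a gene of the hindbrain and the second branchial arch, had 1.85, 1.63, 2.85 and 2.15 CPM in clone 1, 1.11, 1.26, 1.75 and 1.59 in clone 2 and 2.87, 2.001, 2.63 and 2.64 in clone 3. Hoxa3, which acts in the pharynx and neck, had 3.62, 2.93, 3.25 and 2.81 CPM in clone 1, 2.403, 2.08, 2.23 and 2.19 in clone 2 and 3.61, 4.24, 3.75 and 3.13 in clone 3, so that clone 2 lay below both others without overlap, while for Hoxa2 clone 2 lay below clone 3 without overlap and clone 1 overlapped both. In clone 3 against clone 2 the log2 fold changes were 0.84 ± 0.15 for Hoxa2 (adjusted p = 0.00612) and 0.72 ± 0.11 for Hoxa3 (adjusted p = 0.00265). Hoxa4 and Hoxa5, which lie next in the cluster, were also higher in clone 3 than in clone 2, by 0.93 ± 0.22 and 0.54 ± 0.10.

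Cluster D was highest in clone 3 at its posterior end. Hoxd13 (ENSMUSG00000001819, chromosome 2, 74668310 to 74671599, plus strand), a gene of the digits and genital tubercle, had 13.3, 11.7, 13.6 and 14.00 CPM in clone 1, 14.4, 11.5, 18.7 and 15.8 in clone 2 and 21.9, 20.6, 25.02 and 20.9 in clone 3, and the lowest library of clone 3 exceeded the highest of both others. Its log2 fold change in clone 3 was 0.75 ± 0.08 against clone 1 (adjusted p = 5.77e-05) and 0.56 ± 0.08 against clone 2 (adjusted p = 0.00179). Hoxd12, its neighbour with a like role in the digits, had 1.299, 1.69, 2.14 and 1.62 CPM in clone 1, 1.34, 1.62, 2.71 and 2.25 in clone 2 and 2.92, 2.77, 3.21 and 3.41 in clone 3, again with clone 3 above the other 8 libraries. The adjacent Hoxd9, Hoxd10 and Hoxd11 were called higher in clone 3 than in clone 1 as well, at 0.47 ± 0.08, 0.61 ± 0.14 and 0.46 ± 0.16. In this comparison 33.8% of all genes were called. The next gene, Hoxd8, did not pass (0.13 ± 0.05, adjusted p = 0.0725). Toward the other end of the cluster, Hoxd3 and Hoxd4 were lower in clone 3 than in clone 1, by log2 fold changes of -0.53 ± 0.15 and -0.75 ± 0.22, with the shared exons noted above. Hoxd1, the gene at that end, did not pass (0.10 ± 0.30, adjusted p = 0.821).

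In cluster B the adjacent trunk genes Hoxb6 and Hoxb7 were lowest in clone 1. Hoxb7 had 3.88, 3.71, 3.43 and 3.21 CPM in clone 1, 6.26, 6.35, 5.03 and 4.74 in clone 2 and 5.96, 4.898, 4.94 and 5.15 in clone 3. Hoxb6 had 4.16, 3.56, 4.01 and 4.07 CPM in clone 1, 5.47, 5.37, 6.19 and 4.92 in clone 2 and 5.39, 5.18, 5.49 and 4.55 in clone 3. Neither gene overlapped between clone 1 and the others, and in clone 2 against clone 1 they differed by 0.65 ± 0.09 (adjusted p = 0.000351) and 0.47 ± 0.08 (adjusted p = 0.00184), with Hoxb8 at 0.36 ± 0.09 and Hoxb9 at 0.26 ± 0.07. Against clone 3, Hoxb8 (0.26 ± 0.09, adjusted p = 0.0528) and Hoxb9 (0.11 ± 0.07, adjusted p = 0.269) did not pass, and their libraries of clones 1 and 3 overlapped. Hoxb13 ran the other way from few counts: it had 0.433, 0.318, 0.386 and 0.426 CPM in clone 1, 0.221, 0.172, 0.156 and 0.273 in clone 2 and 0.1104, 0.0588, 0.192 and 0.123 in clone 3, and its log2 fold change of -1.66 ± 0.30 in clone 3 against clone 1 (adjusted p = 0.00162) was the largest of any tested member in the 3 comparisons of clones.

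Cluster C had 5 of 9 members called, most of them lower in clone 3. Hoxc8, its highest member and a gene of the thorax, had 23.02, 23.8, 25.1 and 22.1 CPM in clone 1, 23.6, 22.8, 23.5 and 21.9 in clone 2 and 20.3, 18.4, 21.4 and 19.5 in clone 3, and differed between clones 3 and 1 by -0.24 ± 0.05 (adjusted p = 0.00249). Hoxc13, the last member of the cluster and known from hair and nail, had 1.23, 0.7804, 1.202 and 0.7499 CPM in clone 1, 0.601, 0.6200, 0.692 and 0.772 in clone 2 and 0.4101, 0.633, 0.5900 and 0.399 in clone 3. It and Hoxc12 were lower in clone 3 than in clone 1, by -0.94 ± 0.23 and -0.78 ± 0.18, from at most 92 counts a library.

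**Figure D2:**
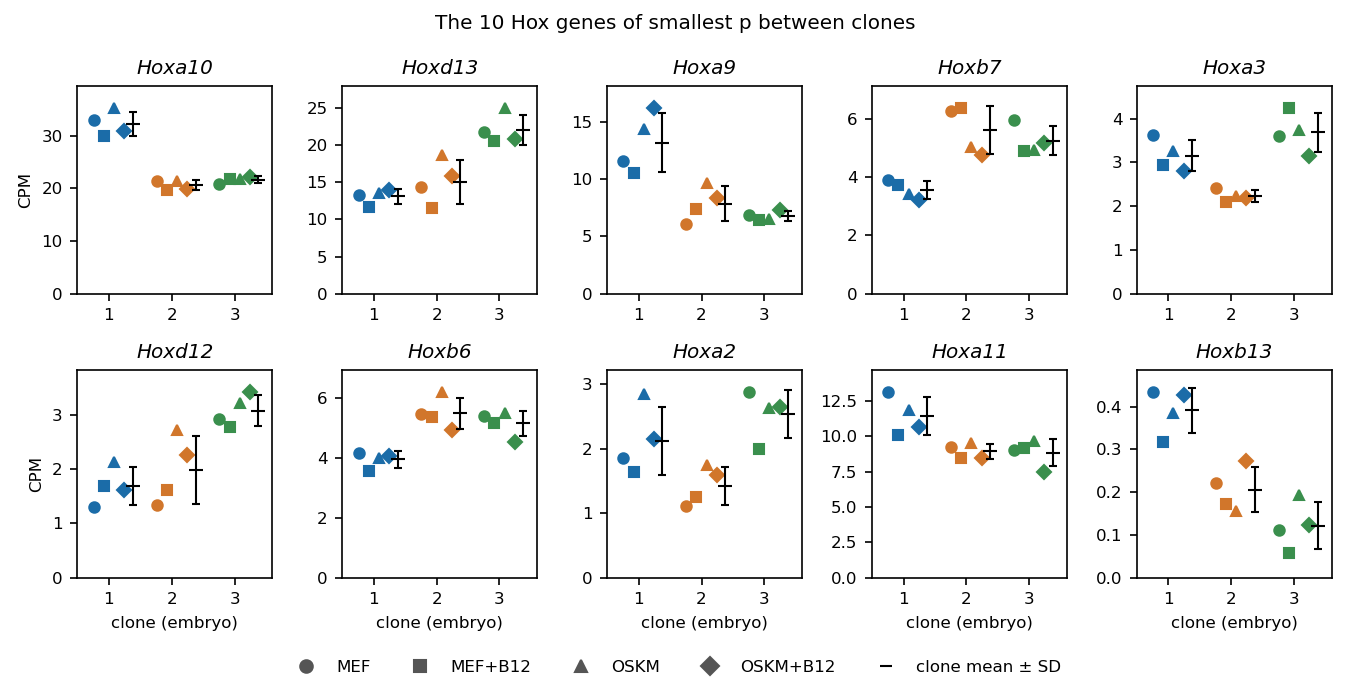
CPM of the 10 Hox genes with the smallest p between clones, 1 point per library, with colours for clones and shapes for groups. Bars are the mean and SD of the 4 libraries of a clone. Hoxa10, Hoxa9 and Hoxa11 are highest in clone 1, Hoxd13 and Hoxd12 in clone 3, and Hoxb7 and Hoxb6 are lowest in clone 1.

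By pairs of clones, 13 members were called in clone 2 against clone 1 (6 higher, 7 lower; 31.1% of all genes were called), 21 in clone 3 against clone 1 (11 higher, 10 lower; 33.8%) and 11 in clone 3 against clone 2 (9 higher, 2 lower; 7.03%). Clones 2 and 3 share the title suffix and the Xist transcript, and the members called between them were Hoxa2, Hoxa3, Hoxa4, Hoxa5, Hoxa13, Hoxd10, Hoxd11, Hoxd12 and Hoxd13, higher in clone 3, and Hoxc8 and Hoxc9, lower in clone 3. The clone differences were also computed apart in the 6 uninduced and the 6 induced libraries, which share no library. Both sets are cultures of the same 3 embryos, so like directions in them are no independent support. In the uninduced libraries 20 members differed between clones (35.5% of all genes did) and in the induced ones 7 did (18.8%). Between clones 3 and 1, 14 members were called in the uninduced libraries (30.2% of all genes) and 10 in the induced ones (20.8%), with 6 called in both. All 14 members called in the uninduced libraries had the same direction in the induced ones, as did 87.65% of all genes called in the uninduced ones. Between clones 2 and 1, 11 members were called in the uninduced libraries (32.3%) and 4 in the induced ones (9.47%), with 3 called in both. Of the 11, 10 kept their direction, against 92.6% of genes. Between clones 3 and 2 the counts were 9 (7% of all genes) and 0 (5.9%), and 8 of the 9 kept their direction, against 83.7% of genes.

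**Figure D3:**
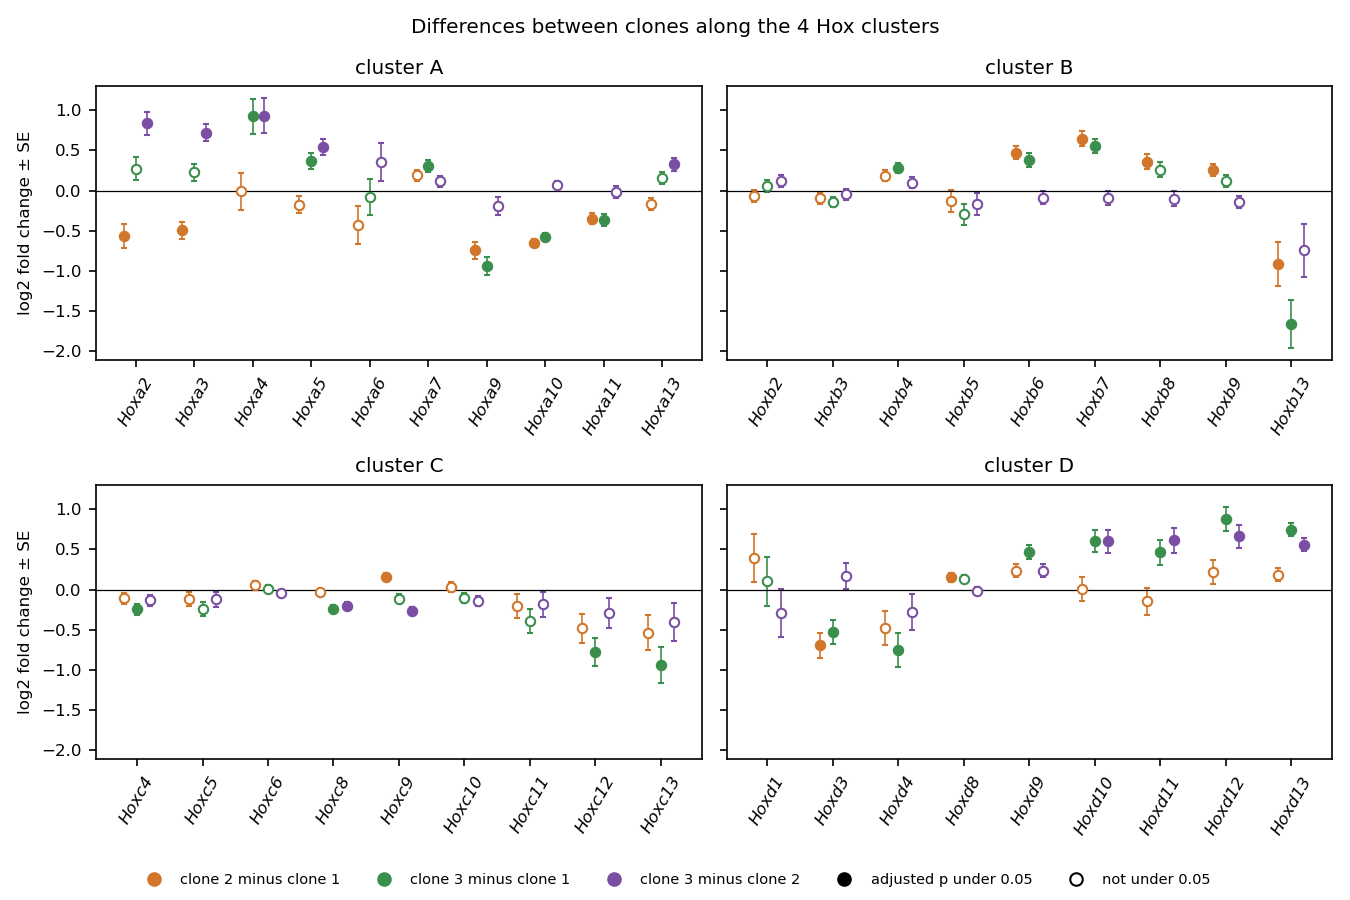
Log2 fold change between clones, with its standard error, for the tested Hox genes in the order of their clusters (1 not shown). Filled points have an adjusted p under 0.05. Clone 3 is above clone 1 from Hoxd9 to Hoxd13, and clones 2 and 3 are below clone 1 from Hoxa9 to Hoxa11.

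As shares of the summed level per kilobase, cluster A held 26.6% ± 1.99 (SD, n = 4 libraries) in clone 1, 20.6% ± 1.24 in clone 2 and 23.0% ± 0.186 in clone 3. Cluster D held 20.3% ± 0.653, 21.8% ± 1.05 and 25.1% ± 0.403, and cluster B held 21.8% ± 1.69, 26.1% ± 1.94 and 24.3% ± 0.569 in the same order. The summed level itself was alike, at 104.4 ± 5.09, 103.5 ± 3.82 and 105.7 ± 3.01 CPM per kb, with overlapping ranges of libraries.

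Other transcription factors of position were counted for comparison. These counts stand beside the 37.8% of all genes that differed between clones. Of 33 tested factors of limb and body regions, 28 differed, and the 3 of smallest p were Hand2, Barx1 and Pax1. Hand2, a factor of the posterior limb bud and the heart, averaged 9.14 ± 0.430 CPM (SD, n = 4 libraries) in clone 1, 11.9 ± 0.749 in clone 2 and 18.2 ± 0.713 in clone 3, and its log2 fold change in clone 3 against clone 1 was 0.99 ± 0.06. Barx1, a factor of the jaw and stomach, averaged 2.76 ± 0.273, 0.573 ± 0.0560 and 1.53 ± 0.181 CPM, and Pax1, a factor of the vertebral column and shoulder girdle, averaged 2.45 ± 0.475, 4.87 ± 0.214 and 7.004 ± 0.359 CPM. Of the 9 TALE homeodomain proteins (Pbx, Meis and Pknox), which bind DNA together with Hox proteins, 3 differed between clones, with the smallest p for Pbx3, and of 24 Polycomb and trithorax regulators 10 did, both near the share of all genes. The latter were led by the X-linked Kdm6a with 18.8, 26.7 and 26.0 CPM on average in clones 1, 2 and 3. Among 9 tested upstream regulators of Hox transcription 7 differed, among them Cyp26b1, which degrades retinoic acid, with 107.2, 56.2 and 63.6 CPM, while Cdx2, Cdx4, Wnt3a, T and Fgf8, which act in the tail bud, had at most 2 counts in any library.

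Markers of other cells were read against the same 37.8% of all genes. The macrophage markers summed to 946.2 to 1514 CPM in clone 1, 602.1 to 1147 in clone 2 and 540.2 to 938.7 in clone 3, with 9 of 11 markers called. Skeletal muscle markers summed to 3.36 to 8.82 CPM over all libraries with Myod1, Myog, Myf5 and Pax7 at 5 counts or fewer, and 2 of 3 tested markers differed. Of the cartilage markers, 4 of 4 tested differed, with sums of 38.2 to 41.7, 37.2 to 59.9 and 44.1 to 54.8 CPM in clones 1, 2 and 3. Endothelial, neural and epithelial markers gave 3 of 4, 3 of 8 and 3 of 4 tested, and fibroblast markers 6 of 14, of which the neural and fibroblast counts lay near the share of all genes. The part of these cells in the Hox differences was not tested.

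With induction, few Hox transcripts were called at 72 h, a number near the share of all genes. Without B12, 0 of 38 members passed the threshold by edgeR, while 0.073% of all genes did, and DESeq2 also called 0. An unadjusted p under 0.05 was found for 8 members, or 21.1%, against 19.0% of all genes. With B12, 0 passed by edgeR and by DESeq2 (0.104% of all genes). Here 6 members had an unadjusted p under 0.05, or 15.8%, against 14.9% of all genes. Averaged over both B12 states, 3 members were called, or 7.89%, where 9.73% of all genes were: Hoxb9 and Hoxd8 fell and Hoxa9 rose. The median log2 fold change of the tested members was 0.03 in this average, against -0.00284 for all genes, and 37 of 38 lay within 0.5 of 0.

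Hoxb9 (ENSMUSG00000020875, chromosome 11, 96271457 to 96276595, plus strand), a gene of the thorax and the rib cage, had 23.3, 27.4 and 22.4 CPM in clones 1, 2 and 3 of MEF and 18.2, 21.4 and 21.4 in OSKM. With B12 it had 21.8, 27.2 and 20.8 in MEF+B12 and 16.8, 20.1 and 21.2 in OSKM+B12. Clones 1 and 2 were lower with induction and clone 3 was nearly level, which gave 5 of 6 pairs of libraries. MEF and OSKM did not overlap, but MEF+B12 and OSKM+B12 did. The average log2 fold change was -0.26 ± 0.06 (adjusted p = 0.0299), made of -0.36 in clone 1, -0.40 in clone 2 and -0.02 in clone 3.

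Hoxd8 (ENSMUSG00000027102, chromosome 2, 74704615 to 74707933, plus strand), a trunk gene and the highest Hox transcript of these cells, had 29.2, 33.2 and 28.7 CPM in clones 1, 2 and 3 of MEF and 24.2, 26.9 and 28.2 in OSKM. It had 27.01, 29.9 and 29.2 in MEF+B12 and 23.7, 25.6 and 27.6 in OSKM+B12, lower with induction in 6 of 6 pairs. MEF and OSKM did not overlap here either, and the groups with B12 did. Its average log2 fold change was -0.18 ± 0.04 (adjusted p = 0.0301). Hoxa9, whose levels are given above, rose by 0.32 ± 0.09 (adjusted p = 0.0483), with 0.46 in clone 1, 0.43 in clone 2 and 0.05 in clone 3, and was higher with induction in 5 of 6 pairs.

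Hoxd12 lay just outside the threshold, with an average log2 fold change of 0.42 ± 0.12 (adjusted p = 0.05003), and Hoxd13 followed at 0.22 ± 0.06 (adjusted p = 0.0527). Hoxd12 also had the smallest p without B12, at 0.59 ± 0.17 (adjusted p = 0.163). In these averages 9 of 11 members of cluster A had a positive sign, and 6 of 9 of cluster B a negative one, which is a count of signs and no test.

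The calls depended on the clones, the pairing and the scaling. Without the clone as a block, 0 members and 0 genes in all were called in the average. Without clone 1 or without clone 2 there were 0 member calls, and without clone 3, whose induction was weak, there were 6: Hoxa2, Hoxa9, Hoxb9, Hoxd8, Hoxd12 and Hoxd13. Without clone 3, Hoxb9, Hoxd8 and Hoxd12 also passed in the comparison without B12, and Hoxb9 passed with B12. Leaving out the OSKM library of clone 1 left 1 call, Hoxd13, and took Hoxb9 and Hoxd8 to an adjusted p of 0.0589. Scaled by library totals only, Hoxd8 no longer passed (-0.14, adjusted p = 0.0512), while Hoxd12 (adjusted p = 0.0383) and Hoxd13 (adjusted p = 0.0343) did. Both also passed by DESeq2 (adjusted p = 0.0286 and 0.0246) and with no filter on low counts. Apart from the fit without the block, the share of all genes called under these settings is not given here. These member counts therefore show how the calls depend on the settings and are no measure of a response particular to Hox genes.

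A test for unequal responses to induction among the clones called 0 of 38 members by edgeR (2.15% of all genes) and 0 by DESeq2. At an unadjusted p under 0.05 were 3 members, or 7.89%, against 14.8% of all genes. Hoxb9 came closest, with an adjusted p of 0.072, followed by Hoxd11 (0.309), Hoxb8 (0.330), Hoxb2 (0.344) and Hoxd8 (0.364). Hoxd11, a gene of the forearm and kidney, had 2.46, 2.096, 1.35 and 1.78 CPM in clone 1, 1.74, 1.46, 1.94 and 1.72 in clone 2 and 2.68, 2.68, 2.604 and 2.53 in clone 3, with a mean log2 difference of -0.54 with induction in clone 1, 0.19 in clone 2 and -0.06 in clone 3. Hoxb8 had 6.84, 6.52, 5.47 and 4.94 CPM in clone 1, 7.54, 7.84, 7.38 and 7.65 in clone 2 and 7.43, 6.59, 6.82 and 7.54 in clone 3. Hoxb2, a hindbrain gene, had 8.297, 8.18, 6.93 and 6.53 CPM in clone 1, 7.34, 7.096, 6.97 and 7.11 in clone 2 and 8.03, 7.44, 7.696 and 7.88 in clone 3, and both genes were lower with induction in clone 1, where the other clones were nearly level. Without clone 1, or without its OSKM library, or with no filter on low counts, Hoxb9 passed this test, with adjusted p-values of 0.0352, 0.0279 and 0.0387.

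In the induction average, where 9.73% of all genes were called, a few genes of the other lists passed, and with so few members their counts are a description. Of 9 TALE cofactors, Pbx3 (0.16 ± 0.04, adjusted p = 0.0270) and Meis2 (0.19 ± 0.05, adjusted p = 0.0493) rose. Of 24 Polycomb and trithorax regulators, the Polycomb reader Cbx2 rose by 0.42 ± 0.09 and Phf19 fell by 0.22 on the log2 scale, a count near the share of all genes. Of 33 body-region factors, 2 fell (En1 and Shox2) and 3 rose, among them Tbx15 and Tbx4. Of 9 upstream regulators Cyp26b1 fell, with a log2 fold change of -0.40 ± 0.07. Of 7 tested coding genes that flank the clusters 0 were called by edgeR, with 2 at an unadjusted p under 0.05, where 26.8% of all genes were. In the same average 1 of 11 macrophage markers rose and 2 fell, 4 of 14 fibroblast markers fell (Col1a1, Col1a2, Pdgfra and Pdgfrb), and 3 of 4 tested epithelial and 2 of 4 tested endothelial markers rose, and their part in the Hox values was not tested.

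Of 49 noncoding genes in and around the clusters, 16 were tested and 1 was called in the induction average, where 9.73% of all genes were. This was Hotair, an RNA transcribed against the Hoxc genes, which rose by 0.87 ± 0.24 (adjusted p = 0.0463), although it had at most 26 counts a library. Between clones 3 of the 16 differed, where 37.8% of all genes did: Hotair, Hotairm1 of cluster A and Gm53 of cluster B. Gm53 averaged 15.2, 12.4 and 10.2 CPM in clones 1, 2 and 3. The clusters also hold hairpins of the miR-10 and miR-196 families, of which miR-196 is known to cut Hoxb8 mRNA. The mature forms are printed with the seed, bases 2 to 8, in capitals, because each family shares 1 seed across clusters.
miR-196a-5p (chr11:96265187-96265208, plus strand): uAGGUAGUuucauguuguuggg
miR-196b-5p (chr6:52230129-52230150, minus strand): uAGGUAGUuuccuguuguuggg
miR-10a-5p (chr11:96317186-96317208, plus strand): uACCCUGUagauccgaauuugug
miR-10b-5p (chr2:74726074-74726096, plus strand): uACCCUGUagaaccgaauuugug
Libraries of poly(A) RNA do not measure mature miRNAs. The row of the hairpin Mir196a-1 had 0.410 to 1.11 CPM and was called in 0 comparisons (edgeR; its smallest adjusted p was 0.163), and the other 5 hairpin rows, Mir196a-2, Mir196b, Mir10a, Mir10b and Mir615, had at most 3 counts in any library.

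With vitamin B12, 0 Hox genes passed the threshold in any comparison, while most members had slightly lower values. In OSKM+B12 against OSKM, 0 of 38 members passed by edgeR and DESeq2 (1.06% of all genes passed edgeR). At an unadjusted p under 0.05 were 3 members, or 7.89%, against 9.82% of all genes. In MEF+B12 against MEF, 0 passed by both tools (1.38% of all genes), with 3 members, or 7.89%, at that level against 10.3%. In the average over both states, 0 passed by both tools (3.84% of all genes), with 6 members, or 15.8%, against 15.5%. Of its 38 log2 fold changes 34 were negative, where 55.1% of all genes had a negative sign. Their median was -0.07, against -0.01 for all genes, and it was -0.09, -0.05 and -0.05 in clones 1, 2 and 3.

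Hoxa13, which patterns the digits and the urogenital tract, was closest to the threshold. It had 4.59, 3.94 and 4.94 CPM in clones 1, 2 and 3 of MEF and 3.54, 3.29 and 4.53 in MEF+B12, then 5.104, 4.77 and 5.39 in OSKM, with 4.37, 3.67 and 4.65 in OSKM+B12. It was lower with B12 in 6 of 6 pairs, with an average log2 fold change of -0.26 ± 0.06 (adjusted p = 0.0542), and OSKM and OSKM+B12 did not overlap, while MEF and MEF+B12 did. Over the alternatives its adjusted p in this average ranged from 0.0503 to 0.614.

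Hoxa11 had an average of -0.20 ± 0.06 (adjusted p = 0.125) and was lower with B12 in 5 of 6 pairs. Hoxd10, a gene of the hind limb, had 1.94, 1.91 and 2.24 CPM in MEF and 1.301, 1.05 and 2.15 in MEF+B12, then 1.71, 1.95 and 2.64 in OSKM, with 1.397, 1.496 and 2.53 in OSKM+B12. It was lower with B12 in 6 of 6 pairs and averaged -0.35 ± 0.12 (adjusted p = 0.153). Hoxc8, whose values stand above, had -0.14 ± 0.05 in OSKM (adjusted p = 0.395). Hoxa6, at only 29 to 67 counts, had 1.09, 0.522 and 0.978 CPM in MEF, 0.419, 0.551 and 0.544 in MEF+B12, 0.771, 0.761 and 0.859 in OSKM and lastly 0.912, 0.482 and 0.615 in OSKM+B12, and a log2 fold change of -0.75 ± 0.28 in MEF (adjusted p = 0.341).

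**Figure D4:**
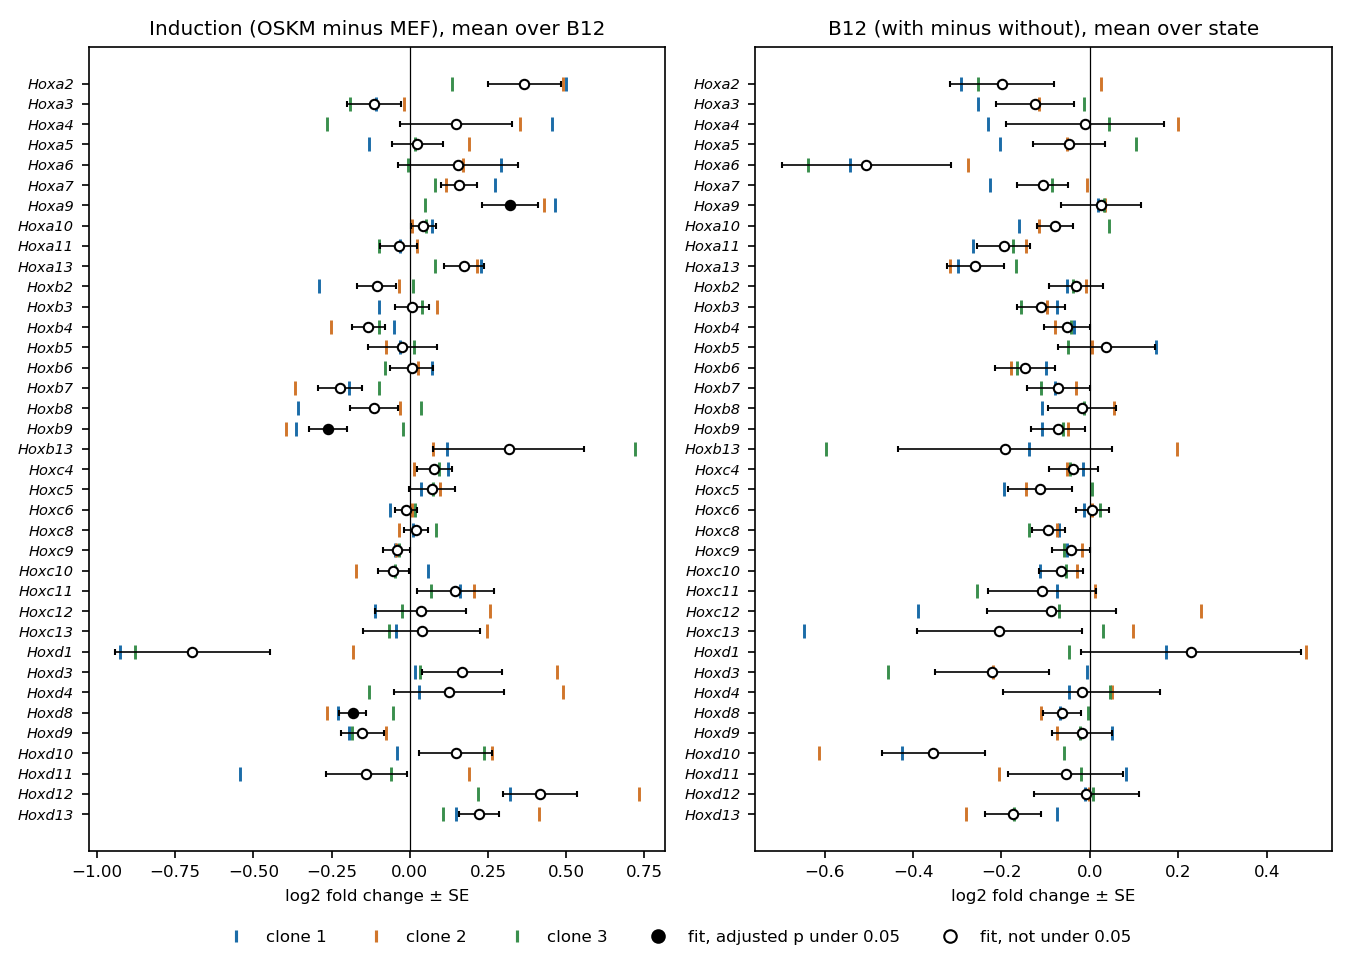
Log2 fold change of the tested Hox genes (1 not shown) with induction (left, mean over both B12 states) and with B12 (right, mean over both states). Circles are the fit with its standard error, filled where the adjusted p was under 0.05, and coloured bars are the clones. Of the filled circles Hoxb9 and Hoxd8 lie left and Hoxa9 lies right of 0 in the induction panel, and most circles lie left of 0 in the B12 panel.

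Summed over the 39 members, the level was 108.5 ± 2.30 CPM per kb (SD, n = 3) in MEF and 101.8 ± 1.53 in MEF+B12, while OSKM had 106.9 ± 1.03 and OSKM+B12 had 100.9 ± 2.73. By library it ranged from 106.3 to 110.9 in MEF against 100.1 to 102.9 in MEF+B12, and from 106.1 to 108.1 in OSKM against 98.3 to 103.8 in OSKM+B12, so the groups with and without B12 did not overlap in either state. This sum is a description with no test. Most macrophage markers moved with B12 in the opposite direction: 10 of 11 were called higher in the average, where 3.84% of all genes were called. The other, Cx3cr1, was lower and not called (-0.45 ± 0.20, adjusted p = 0.296). The median log2 fold change of the 11 markers was 0.57. Their sum ranged from 540.2 to 1014 CPM in MEF, 926.1 to 1514 in MEF+B12, 557.9 to 946.2 in OSKM and 938.7 to 1233 in OSKM+B12. Of the 14 fibroblast markers 13 had a negative sign, with a median of -0.11, and 1 of them, Prrx1, passed the threshold (-0.15 ± 0.03, adjusted p = 0.0336). The part of macrophage RNA in the lower Hox values was not tested.

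**Figure D5:**
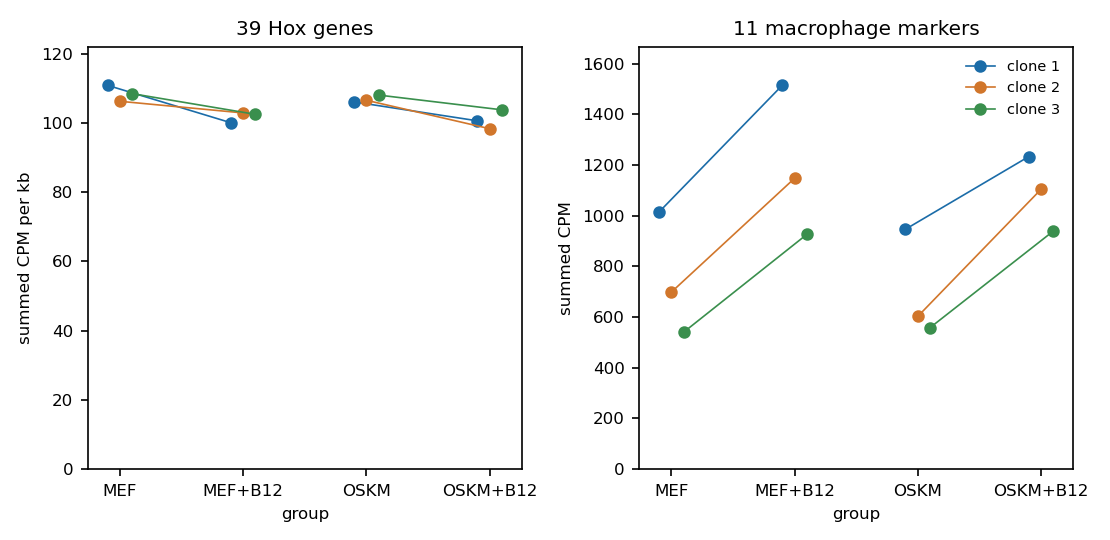
Summed level of the 39 Hox genes (left, CPM per kilobase) and of 11 macrophage markers (right, CPM) in each library, with lines that join the libraries of a clone without and with B12. In each state the Hox sum is lower with B12 in 3 of 3 clones, and the macrophage sum is higher in 3 of 3.

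Whether B12 acted differently in induced and uninduced cells was tested as an interaction, and 0 of 38 members passed by edgeR (0% of all genes) or DESeq2. At an unadjusted p under 0.05 was 1 member, or 2.63%, against 1.42% of all genes. Hoxc12, a posterior gene of few counts, had 1.59, 0.925, 1.13 and 1.118 CPM in clone 1, 0.759, 0.758, 0.761 and 1.09 in clone 2 and 0.757, 0.633, 0.654 and 0.707 in clone 3, in the order MEF, MEF+B12, OSKM and OSKM+B12. Its interaction was 0.59 ± 0.29, and that of Hoxd12 was -0.35 ± 0.24, both with an adjusted p of 1. Of the other lists, B12 moved 2 of 7 genes that flank the clusters, Skap2 (0.23 ± 0.05) and Snx10 (0.14 ± 0.03), both upward in the average. There 3.84% of all genes were called, and 15.5% had an unadjusted p under 0.05. By edgeR, B12 moved 0 of 9 TALE cofactors and 0 of 24 Polycomb and trithorax regulators, with 4 and 4 at that unadjusted level. It moved 0 of 9 upstream regulators and 0 of 16 noncoding genes, with 0 and 1, and 1 of 33 body-region factors, downward. Median log2 fold changes were -0.11 for TALE cofactors, -0.11 for noncoding genes, -0.08 for upstream regulators and -0.08 for body-region factors. They were -0.02 for Polycomb and trithorax regulators and 0.02 for flanking genes, against -0.07 for Hox genes.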

How the data were processed

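RNA was measured by strand-specific poly(A) RNA-seq in 12 libraries (NEBNext kits). The authors deposited raw read counts per gene and library. Per the labels and the study's methods they aligned reads with STAR 2.5.2 to mm10/GRCm38 and counted reverse-stranded reads with featureCounts over Ensembl 97 genes. Everything after the counts was computed here. Columns of other samples numbered 0.

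Genes were kept by filterByExpr over the groups (19174 of 55573), scaled by TMM and fitted with edgeR 4.0.16 (quasi-likelihood F test, Benjamini-Hochberg adjustment over all kept genes, threshold 0.05; R 4.3.3). The terms were group and clone. A clone number marks 1 embryo that gave a library to every group, which pairs the samples: deviations of same-clone libraries correlated at 0.270 to 0.687 over 18 pairs, and those of different clones at 0.170 or less. CPM used TMM-scaled totals. Levels per kilobase used exon bases free of other genes on that strand (GENCODE M21, 55480 genes matched). Fold changes per clone used a prior count of 2. Sequences are from RefSeq, GRCm38.p6. The procedure was tested on simulated data. Totals ran from 56971244 to 79236795 counts, and the floor for a count of 0 covers counting error only.

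The members and lists were chosen with earlier results of these data known. Values in every library were given for members past the threshold between conditions (otherwise the 3 of smallest p), the 10 of smallest p between clones, the 5 of smallest p for the response by clone, and the highest and most posterior members of each cluster. Alternatives were DESeq2 1.42.0, other scalings and filters, no clone term, and libraries left out. Values of 1 member and of 2 genes of the other lists are not reported here, although they stay in the counts and sums.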

Additional observations from a re-analysis of the deposited data

How the results depend on the processing

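Of 736 values of 81 results under alternative settings, 674 were labelled the same. For a single gene this means that it stayed on its side of the threshold. A count of called members was the same if unchanged, or if neither count was 0 and they lay within 1.5 times each other. Medians had to move by less than the SD of the clones, and positional shares by less than the SD of the 4 libraries of a clone. No called value changed direction, but Hox medians near 0 changed sign: that of induction without B12 was 0.02 and ranged from -0.05 to 0.06 without 1 clone, and that of the interaction was 0.03 and ranged from -0.02 to 0.07. With the clone (the replicate block) left out of the fit, the count of Hox genes that changed with induction on average went from 3 to 0, and the block changed no other count. That count was 5 by DESeq2, 6 with no filter on low counts, 1 without the OSKM library of clone 1, and 0 to 6 without 1 clone. Without 1 clone it was 0 to 3 for induction without B12, 0 to 1 with B12, and 9 to 20 for differences between clones. In the 6 induced libraries alone 7 members differed between clones, with 4 for clone 2 against 1, 10 for clone 3 against 1 and 0 for clone 3 against 2. In the 6 uninduced libraries alone these counts were 20, 11, 14 and 9. Both sets of fits hold fewer samples than the main fit. The response by clone had 1 call with no filter and 1 without the OSKM library of clone 1, and 0 to 1 without 1 clone. Scaled by library totals only, the Hox median log2 fold change was 0.0326 for induction with B12 (-0.00617 with TMM, a change of sign), 0.0747 for induction on average and -0.0473 for B12 on average. Without 1 clone it ranged from 0.0225 to 0.0311 for induction with B12, from -0.0857 to -0.0655 for B12 in OSKM and from -0.0911 to -0.0495 for B12 on average. As shares of counts in place of levels per kilobase, cluster A held 30.1%, 23.0% and 25.0% in clones 1, 2 and 3, and groups 9 to 13 held 44.4% in clone 2. Shares of all genes are not given beside these counts, so the counts describe only the dependence on the settings. The cause of these shifts was not tested.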
